A study of Danio rerio with 2 samples.

Results

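Keratins are the intermediate filament proteins of epithelial cells. They assemble from pairs of 1 type I and 1 type II chain, are anchored to neighbouring cells at desmosomes, and give epithelial sheets their mechanical strength. In the vertebrate heart the muscle cells are built around desmin, mesenchymal and endothelial cells mainly contain vimentin, and keratin transcripts are usually looked for in the outer mesothelial layer, the epicardium. The genes described here are krt4, krt5, krt8, krt15, krt17, krt91, krt92 and krt94. This list was drawn up with earlier results of these data known. Of these 8 genes, 7 had a probe set whose platform annotation carried the symbol, with 8 probe sets in all out of 15502 non-control probe sets. krt91 was measured by 2 of them and each of the others by 1. No probe set used here was annotated to krt92, which was not analysed here.

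The values come from whole hearts of adult zebrafish in which about 20% of the ventricle, at its apex, had been cut away. After surgery the fish were exposed to water or to atropine, which blocks muscarinic acetylcholine receptors, and hearts were taken 24 hours after the amputation. Both groups share the amputation and differ in the exposure, and the labels name no strain, dose or uninjured group. For each exposure 15 hearts were pooled and their total RNA was hybridised to 1 Affymetrix array, giving 2 arrays without replicates. A difference below is therefore a property of these 2 pools, with no error and no p-value.

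The deposited values are on a log2 scale and ran from 2.02 to 14.05. A probe set was compared where the higher of its 2 values reached 4.05, the median of all non-control values. Of the 15502 probe sets 7961 passed, and the differences between atropine and water, always given as atropine minus water, centred on a median of -0.01 with a standard deviation of 0.28. The word lower or higher is used below for the size of a value, and a probe set was counted as called only if it differed at least 1.5-fold, which is 0.58 on the log2 scale. Heart muscle RNA, though not whether the hearts were whole, was checked on 14 cardiomyocyte markers, of which 9 had a probe set. Of their 13 probe sets 10 passed the filter, covering all 9 genes, with water values from 6.95 (myh7, a myosin heavy chain) to 13.37 (actc1a, a cardiac actin). Their differences ran from -1.41 (tnnc1a, cardiac troponin C) to 0.09. In pooled whole hearts, fewer keratin-containing cells and less keratin RNA per cell cannot be told apart.

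Of the 7 keratin probe sets compared, 6 had a lower value in the atropine pool, where 51.2% of all probe sets compared did. krt4 and krt5 were the only members called, both lower in atropine. krt15 and krt91 were lower by less than 1.5-fold, krt8 had near-equal values, krt94 was slightly higher, and krt17 was below the level filter on both arrays. Counted by probe set, 2 of the 7 compared were at least 1.5-fold lower, where 2.29% of all probe sets compared were, and 0 were at least 1.5-fold higher, where 2.11% were. At 2-fold 1 of the 7, krt5, was lower, where 0.465% were. The median of the 7 was -0.50, beside -0.01 for all probe sets compared, with krt91 counted by 2 probe sets. The summed linear signal of all 8 member probe sets was 4755 in water and 4606 in atropine, most of it from krt8 and krt94. krt5 passed the filter through its water value alone, so a difference was built into its inclusion. Among the 6 probe sets past the filter on both arrays 1 was called, that of krt4, where 2.06% of the 7541 probe sets past it on both arrays were, and their median was -0.47. These are descriptions of 2 arrays and no test of the treatment, and the members were chosen with earlier results of these data known.

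**Figure D1:**
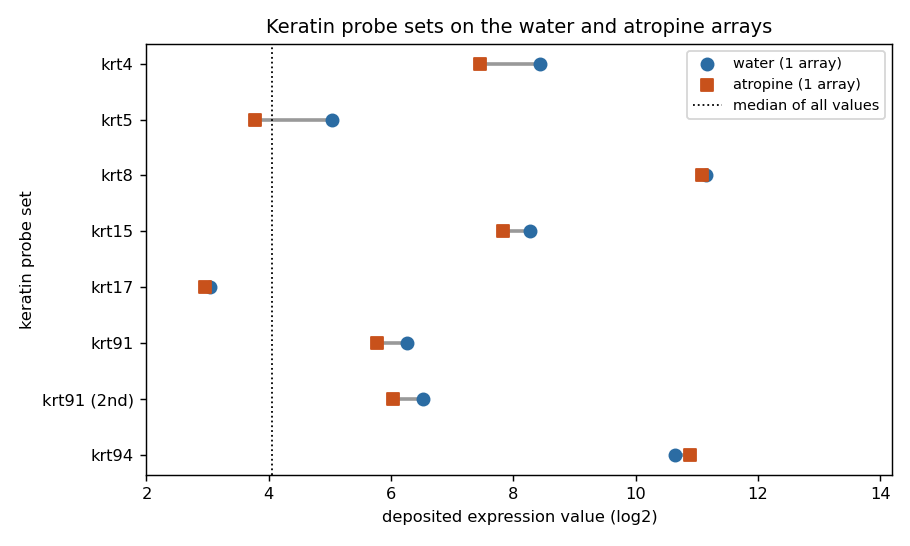
Deposited log2 value (horizontal axis) of each of the 8 keratin probe sets (vertical axis) on the water array (circles) and the atropine array (squares), with the median of all values as a dotted line; each point is 1 array. krt4 and krt5 show the widest gaps, krt5 crosses the dotted line at 4.05, and krt17 lies left of it on both arrays.

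Type II chains were represented by krt4, krt5 and krt8. krt4 is expressed in zebrafish surface epithelia, and its promoter is widely used to drive transgenes in the skin. Its probe set read 8.43 in water and 7.46 in atropine, a difference of -0.97 (log2), or 1.96-fold lower. Both values lay well above the level filter. On the linear scale the signal was 345.8 array units in water and 176.4 in atropine. With an offset of 16 added to both linear signals before taking logs, which shrinks differences between dim values, the difference was -0.91, or 1.88-fold. krt4 thus stood just under 2-fold on either scale. It ranked 42nd lowest of the 7961 probe sets compared as deposited and 23rd lowest with the offset. The RefSeq gene table lists krt8 among the older names of krt4, so the 2 genes were told apart by the platform annotation symbol and not by older names.

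krt5 encodes a type II keratin whose mammalian namesake is made in the basal layer of stratified epithelia. Its probe set read 5.03 in water and 3.77 in atropine, a difference of -1.26 (log2), or 2.39-fold lower. This was the widest difference of the keratin probe sets and ranked 19th lowest of all those compared. The atropine value lay under the level filter, however, and in linear units the signal was only 32.7 in water and 13.7 in atropine. With the offset of 16 the difference was -0.71, or 1.64-fold, and ranked 49th lowest. With an offset of 64 it was -0.32, under 1.5-fold. The order of the leading pair therefore depended on the scale. krt5 differed more than krt4 as deposited, and krt4 differed more than krt5 with either offset. No detection call was used, so whether krt5 was above background in the atropine pool is unknown.

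krt8 is a type II keratin that in mammals pairs with keratin 18 in simple epithelia. Its probe set read 11.16 in water and 11.08 in atropine, a difference of -0.08, which the offset of 16 left at -0.08. It ranked 3016th lowest. The keratin 18 genes on the array, krt18a.1 and krt18b, are not among the 8 and were named by the rule that takes in every other keratin-named gene. krt18a.1 read 10.20 and 10.26, a difference of 0.05, and krt18b read 8.55 and 8.36, a difference of -0.19. None of these 3 probe sets came near 1.5-fold.

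The type I genes krt15 and krt17 carry the names of mammalian keratins of basal epidermis and of hair follicles and wounded skin, respectively. Shared names do not make them counterparts in function. krt15 read 8.28 in water and 7.83 in atropine, a difference of -0.45 (log2), or 1.37-fold lower, and -0.42 with the offset of 16. In linear units this was 310.8 against 227.7. krt17 read 3.03 and 2.96, a difference of -0.07, or -0.025 with the offset, at a level where no difference could be read at this sensitivity. krt15 was thus measured well above the filter and was not called, whereas krt17 gave no usable value.

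krt91 and krt94 belong to the numbered keratin genes of fish. The first krt91 probe set read 6.27 in water and 5.77 in atropine, a difference of -0.50, and the second, whose suffix marks probes that can take up related transcripts, read 6.53 and 6.02, also a difference of -0.50. This is 1.41-fold and 1.42-fold lower, respectively. With the offset of 16 the differences were -0.40 and -0.42. Their identifiers name the same target sequence, so their agreement is no independent measurement. krt94 ran the other way, at 10.65 in water and 10.89 in atropine, a difference of 0.24 (log2), or 1.18-fold higher, and 0.24 with the offset. In linear units krt94 was at 1603 in water and 1894 in atropine. It was the only member probe set with a higher value in atropine.

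**Figure D2:**
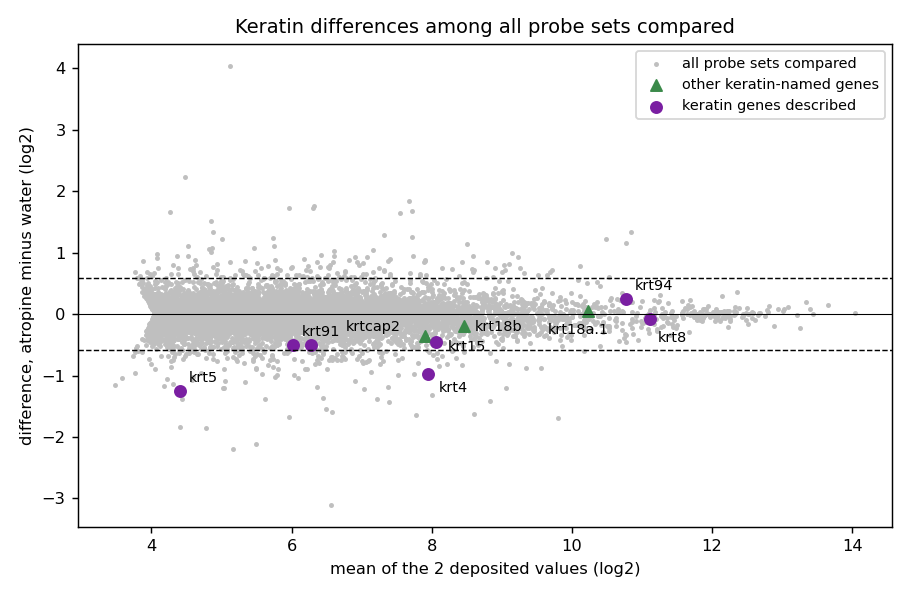
Difference, atropine minus water (log2, vertical axis), against the mean of both values (log2, horizontal axis) for the 7961 probe sets compared (grey), with the keratin genes described as circles and other keratin-named genes as triangles; dashed lines mark 1.5-fold. krt4 and krt5 lie below the lower line, krt15 and krt91 between it and 0, and krt94 above 0.

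Because the deposited arrays have near-equal distributions, each difference is relative to the other genes, and the zero line itself depends on the scaling. Median centring, quantile normalization and a loess fit on mean level left krt4 between -0.98 and -0.94 and krt5 between -1.26 and -1.25. The polyadenylated bacterial transcripts that the labelling scheme adds to the RNA were lower on the atropine array in 13 of 13 probe sets past the filter, with a median of -0.48 and a range from -0.86 to -0.13. These probe sets cover only the dap, lys, phe and thr transcripts, some of them more than once, so the 13 are not separate readings. Scaling to these spike-ins would move the median of all probe sets compared to 0.47. On that scale krt5 was at -0.78, krt4 at -0.49, under 1.5-fold, and krt91 near 0 at -0.021 and -0.025. krt15 changed sign to 0.03, krt8 to 0.40 and krt17 to 0.41, and krt94 was at 0.72, past 1.5-fold higher. On that scale 29.8% of all probe sets compared were called higher and 0.402% lower, so the krt94 value there says little about that gene. Scaling to the cardiomyocyte markers would move the median of all to 0.15, with krt4 at -0.81, krt5 at -1.10 and krt8 and krt17 turned to 0.08 and 0.09. Relative to the median of all genes the members keep the differences given above under both of these scalings, since each subtracts 1 constant.

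**Figure D3:**
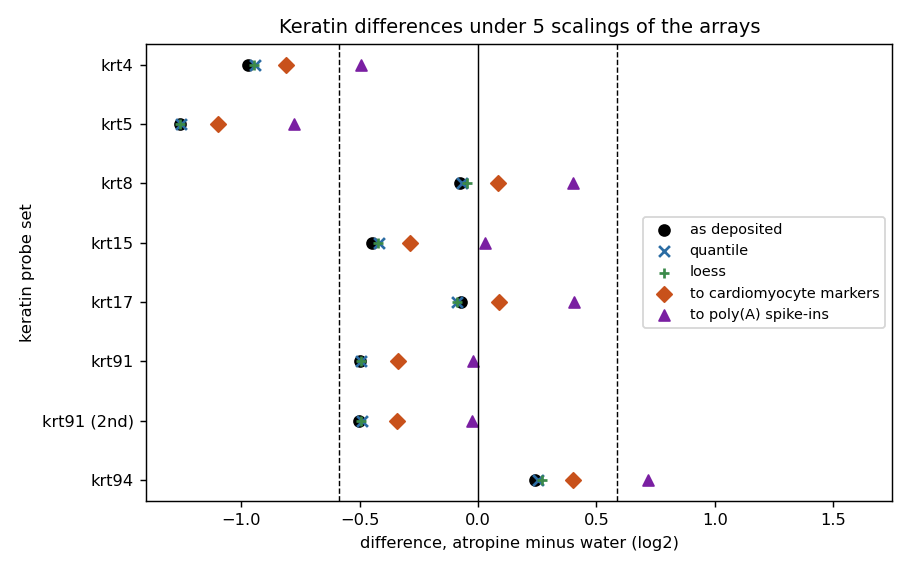
Difference, atropine minus water (log2, horizontal axis), of each keratin probe set (vertical axis) as deposited and after 4 other scalings of the arrays, with dashed lines at 1.5-fold. Quantile and loess values nearly cover the deposited ones, whereas scaling to the spike-ins moves every point to the right, krt4 to -0.49 and krt94 to 0.72.

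Contrasts between keratin genes do not depend on such a constant. Set against krt8, the member with the highest mean value, picked after its value was seen, krt4 was lower by a further 1.86-fold (-0.90 on the log2 scale) and krt5 by 2.27-fold (-1.18). krt15 stood at -0.37 relative to krt8, and the krt91 probe sets at -0.42 and -0.43. krt94 stood at 0.32, so the members were spread on both sides of krt8. These are differences of differences within the same 2 arrays and show unequal values only. The krt5 contrast also rests on an atropine value under the level filter, and it shrinks with an offset. With an offset of 64 krt5 was at -0.32 and krt8 at -0.07.

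Several members lie side by side with other keratin genes. In the order of protein-coding genes in RefSeq's GRCz12tu table, krt5, krt8 and krt18a.1 follow each other directly, with differences of -1.26, -0.08 and 0.05. krt94 and krt15 are separated only by krt98 in a run of keratin genes from krt93 to krt99, and differed by 0.24 and -0.45. krt4 and krt18b have 1 protein-coding gene between them and differed by -0.97 and -0.19. krt17 and krt91 are direct neighbours, but krt17 gave no usable value. krt8 and krt18a.1 thus had similar differences, both near the median of -0.01 for all probe sets compared. Those of krt5 and krt8, krt94 and krt15, and krt4 and krt18b were further apart. Other neighbouring genes were not compared in this way. The krt5 difference rests on an atropine value under the level filter. Only the gene order is used here, since no genome build is stated for the array.

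The effect of the offset depended on level. For krt8 and krt94, the brightest members, offsets of 16 and 64 moved the difference by less than 0.01 (log2), to -0.07 and 0.23 with the larger one. For krt91 the larger offset gave -0.25 and -0.28, and for krt15 -0.36. krt4 remained past 1.5-fold with it, at -0.77, where 0.427% of all probe sets compared were at least 1.5-fold lower, and the other members did not. With the offset of 16, 2 of the 7 probe sets compared were at least 1.5-fold lower, where 1.24% of all were, and 0 were that much higher, where 1.14% were. 1 of those 2 was krt5, which passed the filter through its water value alone.

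**Figure D4:**
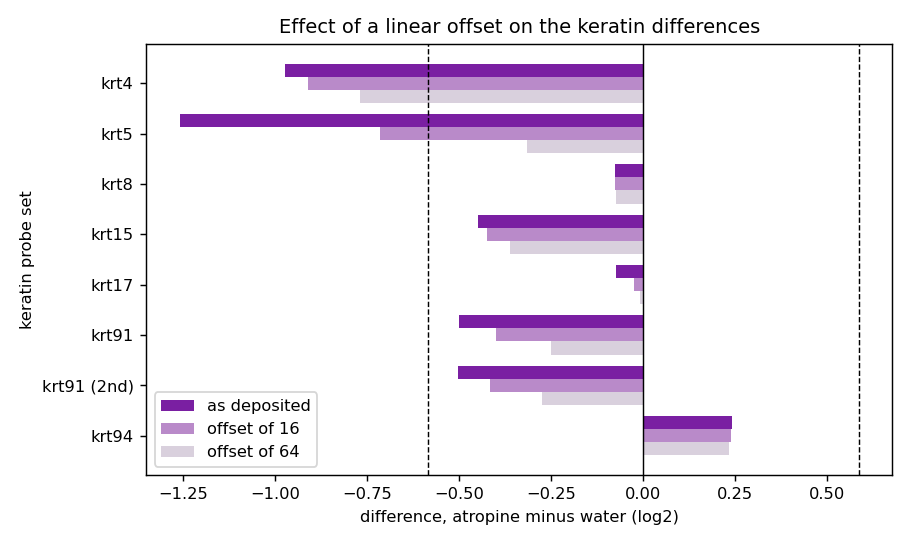
Difference, atropine minus water (log2, horizontal axis), of each keratin probe set (vertical axis) as deposited and with 16 or 64 added to the linear signal, shown as bars from 0, with dashed lines at 1.5-fold. The krt5 bar shortens from -1.26 to -0.71 and -0.32, whereas the krt4 bar stays past the dashed line at -0.77.

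Beyond the 8 genes, the naming rule took in 14 further probe sets of 10 genes, of which 3 passed the filter. These were krt18a.1, krt18b and krtcap2, which is named for keratinocytes, encodes no filament protein, and read 8.09 in water and 7.73 in atropine. The other 11 probe sets, of krt1-19d, krt1-19e, krt93, krt95, krt97, krt99 and si:ch211-243g18.2, had values between 2.45 and 3.86. Their differences ran from -0.15 to 0.20 as deposited and from -0.07 to 0.08 with the offset of 16, so at these levels they carry no readable difference.

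Partners of the keratin network were read from the desmosome and filament lists. Of 22 desmosome and filament linker genes listed, 13 had a named probe set and 7 genes, with 9 probe sets, passed the filter. None of the 9 was called in either direction, and their median was -0.16. Of all probe sets compared 2.29% were called lower and 2.11% higher, so 0 of 9 is near those shares. The brightest were perp, which encodes a desmosomal membrane protein, at 9.16 in water and 9.26 in atropine, and jupa (plakoglobin), at 7.84 and 7.71. The lowest, named after its values were seen, was pleca, which encodes plectin, a linker of intermediate filaments, at -0.48 and -0.26 on its 2 probe sets. The related gene plecb, also named after its values were seen, went the other way, at 5.15 in water and 5.38 in atropine. The 2 hemidesmosome genes with a probe set were below the filter. Among the other intermediate filament genes only desma (desmin), vim (vimentin) and lmnb1 (lamin B1) passed, of 12 with a probe set. desma read 10.92 and 10.93, lmnb1 6.77 and 6.59, and vim 6.70 and 6.42, so none was called.

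Markers of the cell types that could hold keratin were read beside these values. Of 34 surface epithelium markers 29 had a probe set, and only 8 probe sets of 6 genes passed the filter, with 0 called and a median of -0.10. Of all probe sets compared 2.29% were called lower and 2.11% higher, so 0 of 8 is near those shares. Defining genes of that list were below the filter on both arrays, with epcam at 3.40 at most, cdh1 at 3.25 and tp63 at 3.90. The brightest that passed were the S100 genes icn, with 2 probe sets at 11.26 and 10.60 in water and 10.96 and 10.30 in atropine, and s100v2 at 7.42 and 7.08. Also among those that passed, and named after its values were seen, cfl1l (a cofilin-like gene) read 6.04 and 5.74. The probe sets of icn, s100v2 and cfl1l were 4 of the 8 compared, and all 4 were lower in atropine. The rest, of grhl1 (a difference of 0.26), spint2 (0.17 and 0.08) and cldn1 (0.11), were higher by less than 1.5-fold. Summed over the whole list the linear signal was 4545 in water and 3763 in atropine, most of it from icn. The 2 icn probe sets gave 3998 and 3251 of these sums, and the other 35 gave 547 and 511. The icn identifiers name the same target sequence, so these sums count that target more than once. The brighter icn probe set carries the suffix for related transcripts. The part of surface epithelium in the krt4 and krt5 values was not tested.

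Of 20 epicardial markers 11 had a probe set, and 9 genes with 11 probe sets passed. Their median was -0.16, with 2 called lower, fn1a (fibronectin) at 7.27 in water and 5.72 in atropine and tgm2b (a transglutaminase) at 7.18 and 6.55, and 0 called higher. Of all probe sets compared 2.29% were called lower. The other fn1a probe sets were below the filter, at 4.04 in water and 3.79 in atropine and at 2.70 and 2.60. In the epicardial list 8 of the 11 had a lower value in atropine. Its brightest members were near-equal or slightly higher, s100a10b at 11.29 and 11.28 and anxa2a at 11.11 and 11.22. aldh1a2, neither called nor among the 2 brightest, read 9.88 and 9.48. It encodes the retinoic acid-synthesizing enzyme of injured epicardium and endocardium. Also neither called nor among the brightest, cxcl12a differed by 0.22 and -0.16 on its 2 probe sets, and postnb by 0.10 and -0.04. The transcription factor genes tbx18 and wt1a were below the filter, at 3.87 at most, and tcf21 and wt1b were not analysed here. The summed linear signal of the list was 7075 in water and 6691 in atropine. Its part in the keratin values was not tested.

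Leukocyte and red blood cell markers differed by more. Among 12 compared leukocyte probe sets 7 were called lower and 0 higher, with a median of -0.90. Those called were of cd74a, cd74b, lyz, mmp13a, mmp9 and, with 2 probe sets, mpx. The other mpx probe sets were below the filter, at -0.09 and 0.02. The summed linear signal of the list was 4162 in water and 2393 in atropine. Those compared but not called, named after their values were seen, were ptprc (-0.54), marco (-0.36), lcp1 (-0.22), coro1a (-0.17) and csf1ra (0.10). Among 7 red blood cell genes 4 were called higher (epb41b, gata1a, hbba2 and klf1) and 0 lower, with a median of 0.73 and summed signals of 12084 and 15809. Of 10 cardiomyocyte probe sets 2 were called lower (myh7 and tnnc1a), with a median of -0.16. Of all probe sets compared, 2.29% were called lower and 2.11% higher. These marker lists differed between the same 2 arrays as krt4 and krt5, and their part in the keratin values was not tested.

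**Figure D5:**
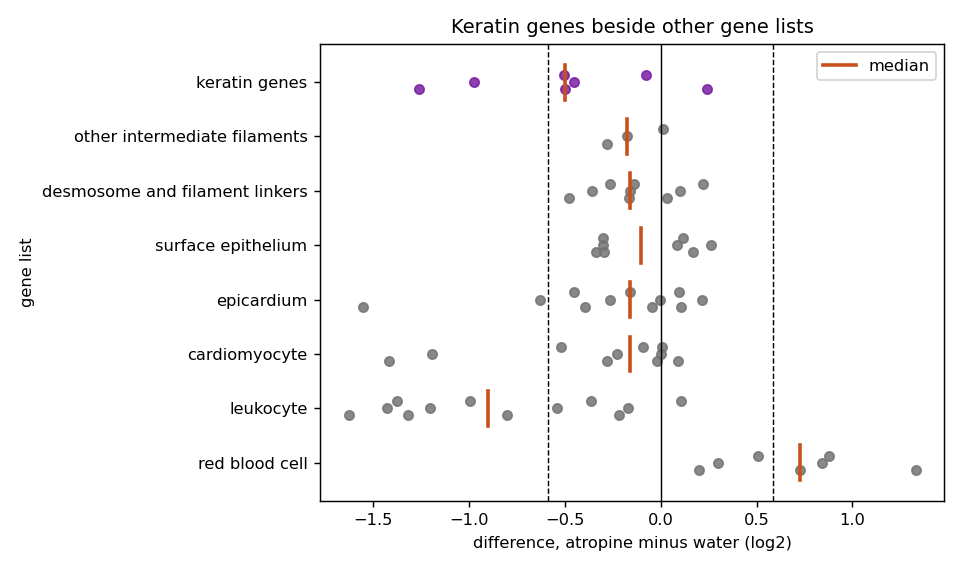
Difference, atropine minus water (log2, horizontal axis), of each probe set past the level filter in the keratin genes and in 7 other gene lists (vertical axis), with medians as vertical bars and dashed lines at 1.5-fold. The keratin median of -0.50 lies between the leukocyte median of -0.90 and the medians from -0.18 to -0.10 of the filament, desmosome, epithelial, epicardial and cardiomyocyte lists.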

How the data were processed

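Per the labels' protocols, total RNA of 2 heart pools was amplified and biotin-labelled by the Affymetrix 3' IVT Express method. The table deposited by the authors holds 1 log2 value per probe set and array. That the unit is log2 was read from the values' range. How they were normalized is not given in the sources used here, but after sorting, the arrays were never more than 0.15 apart. Signal over background is unknown, and 2 arrays limit the precision.

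Probe sets were named by the platform annotation and updated through Entrez identifiers to a RefSeq gene table. A single symbol was given for 10795 of the 15502 non-control probe sets (99.2% of them found in that table), several for 135 and none for 4572. The difference is log2(atropine) minus log2(water) as deposited, so with 1 array per group no test was made. Fold values are 2 to the power of its size. All keratin-named genes were named in the text. From each other list the genes past the filter and at least 1.5-fold apart were named, or else the 2 brightest. For the epicardial list the 2 brightest were named besides the genes called. The other exceptions are marked in the text or serve as checks of a cell type. The members and lists were chosen with earlier results of these data known. No gene was named for likeness to a keratin gene, since 2 arrays give no pattern across samples. The difference and call steps were run on simulated data with known changes at levels well above the filter. This checks the code only, and not values near the filter such as those of krt5. Python 3.11.15, numpy 2.4.6, pandas 2.3.3 and statsmodels 0.14.6 were used.

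The alternatives were median centring, quantile normalization, loess (span 0.4), offsets of 16 and 64, no filter or one at the upper quartile of 5.98, omission of probe sets with a suffix for related transcripts, a 2-fold threshold and 1 probe set or the mean per gene. Leaving out krt5 and scalings to the spike-ins and to the cardiomyocyte markers were added after seeing the data.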

Additional observations from a re-analysis of the deposited data

How the results depend on the processing

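The count of 2 keratin probe sets at least 1.5-fold lower in atropine became 1 under some alternatives. That 1 was krt4 with an offset of 64, with the filter at the upper quartile and without krt5. It was krt5, which passed the filter through its water value alone, at a 2-fold threshold and with scaling to the polyadenylated spike-ins. Of all probe sets compared, 2.29% were called lower as deposited, 0.427% with the offset of 64, 0.465% at 2-fold and 0.402% with the spike-ins. The share with the filter at the upper quartile was not counted. The keratin count was 2 under the other 9 alternatives run. The count of 0 at least 1.5-fold higher became 1, krt94, with spike-in scaling only, on a scale where 29.8% of all probe sets compared were that much higher. The median of -0.50 was -0.28 with an offset of 64 and -0.021 with spike-in scaling, and lay between -0.50 and -0.34 under the others. Under the scalings and offsets, krt4 came under 1.5-fold only with the spike-ins (-0.49), krt5 only with an offset of 64 (-0.32), and krt94 passed it only with the spike-ins (0.72). No paired analysis was possible because each group is 1 array, and for the same reason no replicate could be left out. Values near the floor, as for krt5 in atropine and krt17, limit what can be read.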

Other observations

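One further probe set was annotated to several genes at once, with a keratin name among them, and is left unnamed. It read 4.84 in water and 4.86 in atropine, a difference of 0.03 (log2), or 0.02 with the offset of 16.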
